A study of Mus musculus with 23 samples.

Results

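The genes described here belong to the gene families of voltage-gated sodium channels, voltage-gated calcium channels and hyperpolarization-activated (HCN) channels. They were taken from the gene table by symbol, as every gene whose symbol begins with Scn, a number and a or b (sodium channel alpha and beta subunits), with Cacna, Cacnb or Cacng and a number, with Cacna2d, or with Hcn and a number. Of 23373 genes in the table, 44 met the rule: 10 sodium channel alpha and 4 beta subunit genes, 4 genes of the L-type calcium channel pores (Cav1), 3 of the Cav2 and 3 of the Cav3 pores, 4 alpha2delta, 4 calcium channel beta and 8 gamma subunit genes, and 4 HCN genes. No measured value entered that choice.

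The series holds 23 libraries of single neurons dissected from the arcuate hypothalamus, with levels given as FPKM, fragments scaled by gene length and library size. The donors were 2 young adult male mice of mixed background that carried Cre in the VGLUT2 gene (vGLUT2-IRES-Cre) and a loxSTOPlox-L10-GFP reporter, and all 23 cells share that genotype, with no treatment and no control group. Cre removes the stop for good, so GFP marks cells in which the driver had been active at some time, and only GFP-positive cells, picked by hand after papain digestion, are represented. Cells are not linked to either mouse in the labels; they are thus a single group, no test between cells was possible, and every value below is a description of these cells.

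Most sodium channel alpha subunits open on depolarization and carry the upstroke of the action potential, while their beta subunits adjust gating and placement in the membrane. Cav1, Cav2 and Cav3 pores admit calcium as L-type, N-, P/Q- and R-type, and T-type current, and alpha2delta and beta subunits bring the high-voltage pores to the surface; the T-type channels open near resting potential and support burst firing. HCN channels open on hyperpolarization and pass a depolarizing pacemaker current, and in the arcuate nucleus such currents are known to shape the firing of the neurons that make pro-opiomelanocortin or kisspeptin.

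Cells were sorted by peptide gene. Pomc, the precursor of melanocortin peptides, was at or above 1000 FPKM in 8 cells (cells 4, 5, 6, 11, 12, 13, 21 and 22), called Pomc cells here; the lowest of them had 1488 FPKM (cell 22), and the highest cell outside had 922 FPKM (cell 3). Kiss1, which encodes kisspeptin, was at or above 500 FPKM in 5 cells (cells 8, 17, 19, 20 and 23), called Kiss1 cells; the lowest inside had 895 FPKM (cell 23) and the highest outside 62.5 FPKM (cell 21). The other 10 cells are called cells of neither type, and 0 cells met both limits. Sample titles carry 1 of 2 prefixes that the labels do not explain: cells 1 to 15 form title set 1 and cells 16 to 23 title set 2. Title set 1 held 6 Pomc cells, 1 Kiss1 cell and 8 of neither type, and title set 2 held 2, 4 and 2, so the Kiss1 cells lie mostly in set 2.

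The libraries reached 1 FPKM for 4049 to 8025 genes, with a median of 7079. Cell 17 had the fewest, followed by cell 19 with 5990, and both are Kiss1 cells; their relative sequencing depths, 1.43 and 1.79 on a scale where cell 12 is 1, were not low, since the range over cells was 0.590 to 2.46. Each of 10 neuronal markers reached 1 FPKM somewhere, and 8 of them did so in 12 cells or more. Slc17a6, which encodes VGLUT2, ranged from 0.520 to 139 FPKM and was at or above 1 FPKM in 22 cells. Markers of astrocytes reached 1 FPKM for 2 of 5 genes, of oligodendrocytes for 4 of 5, of microglia for 3 of 4 and of endothelium for 2 of 4, none of them in 12 or more cells, and Mog and Cldn5 were listed at 0 in every cell. The summed astrocyte markers ran up to 166 FPKM in Pomc cells (cell 12, nearly all Gfap), 1.42 in Kiss1 cells and 5.93 in cells of neither type, and the summed oligodendrocyte markers up to 39.7, 54.6 and 53.4 FPKM. Their part in the channel gene values was not tested.

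Most of the channel genes were found in these neurons, and each cell held its own subset. At or above 1 FPKM, 42 of 44 genes (95.5%) were seen in at least 1 cell, against 63.6% of all genes, and 24 (54.5%) in 12 or more cells, against 27.7%. Only Cacng2 (2.27% of the genes) reached it in all 23 cells, against 7.2% of all genes. Among the genes seen in at least 1 cell, the median number of cells was 13 for the channel genes and 9 for all genes, and the median of the genes' median levels was 1.19 and 0.402 FPKM. By number of cells, 22 genes (50%) were seen in 13 to 22 cells, against 18.6% of all genes. In 4 to 11 cells there were 11 (25%), against 18.2%, and in 1 to 3 cells 7 (15.9%), against 17.7%. The 2 genes seen in no cell were 4.55%, against 36.4% of all genes.

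**Figure D1:**
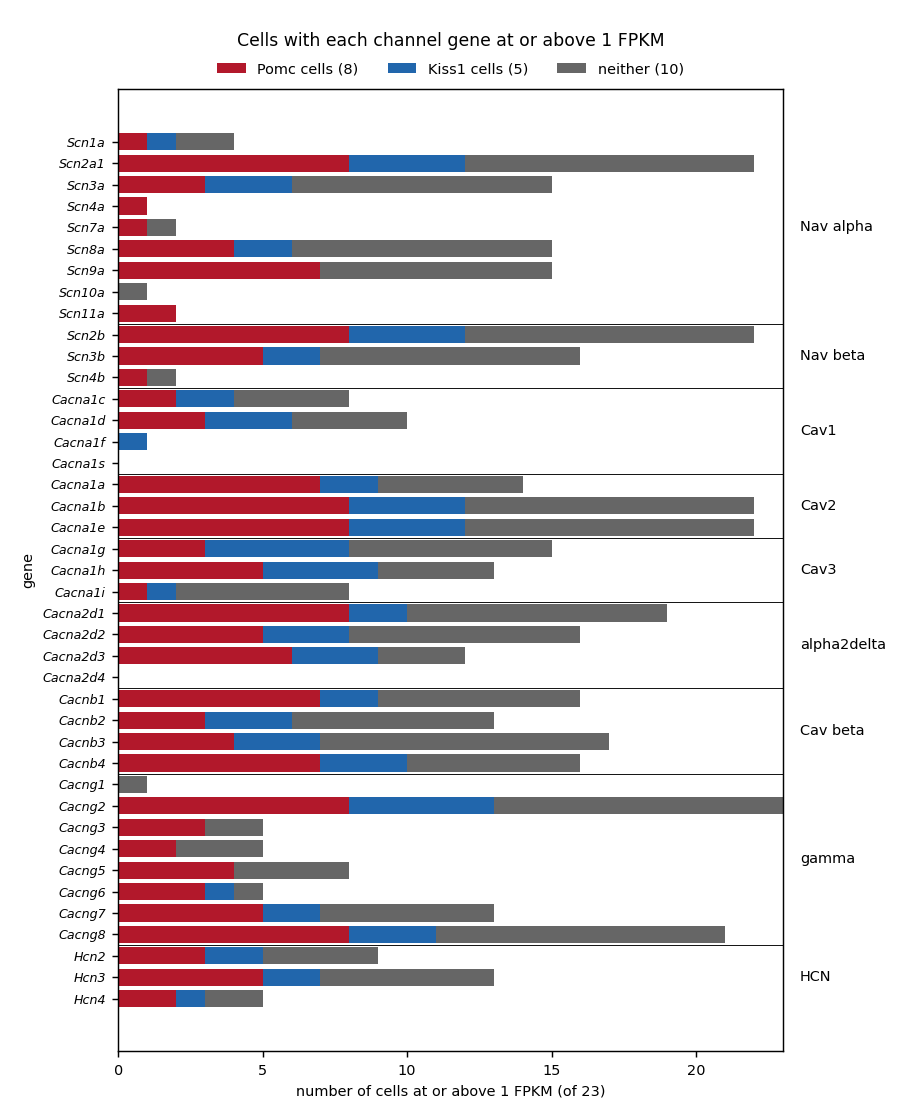
Number of cells at or above 1 FPKM (horizontal axis, of 23) for 41 of the genes (vertical axis, grouped by subfamily). Bar segments count Pomc cells (8), Kiss1 cells (5) and cells of neither type (10); Cacng2 reached all 23 cells, Cacna1s and Cacna2d4 none, and Scn9a has no Kiss1 segment.

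A single cell held 7 to 29 of the 44 genes at or above 1 FPKM, with a median of 22. Cell 17 had 7 and cell 22 had 29, and both are in title set 2. The number of channel genes was higher in cells with more genes of any kind (Pearson r = 0.79 and Spearman rho = 0.68 over 23 cells, 0.62 and 0.63 without cell 17). Both counts of a cell come from its own library, and the channel genes are part of the count of all genes. Relative depth and the number of channel genes gave r = -0.18. The medians were 22.5 in Pomc, 18 in Kiss1 and 23.5 in cells of neither type, and the ranges, 15 to 29, 7 to 23 and 18 to 27, overlapped. The numbers of all genes had medians of 7569.5, 6321 and 6994.5 in the same order, so the Kiss1 cells were lowest in both.

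**Figure D2:**
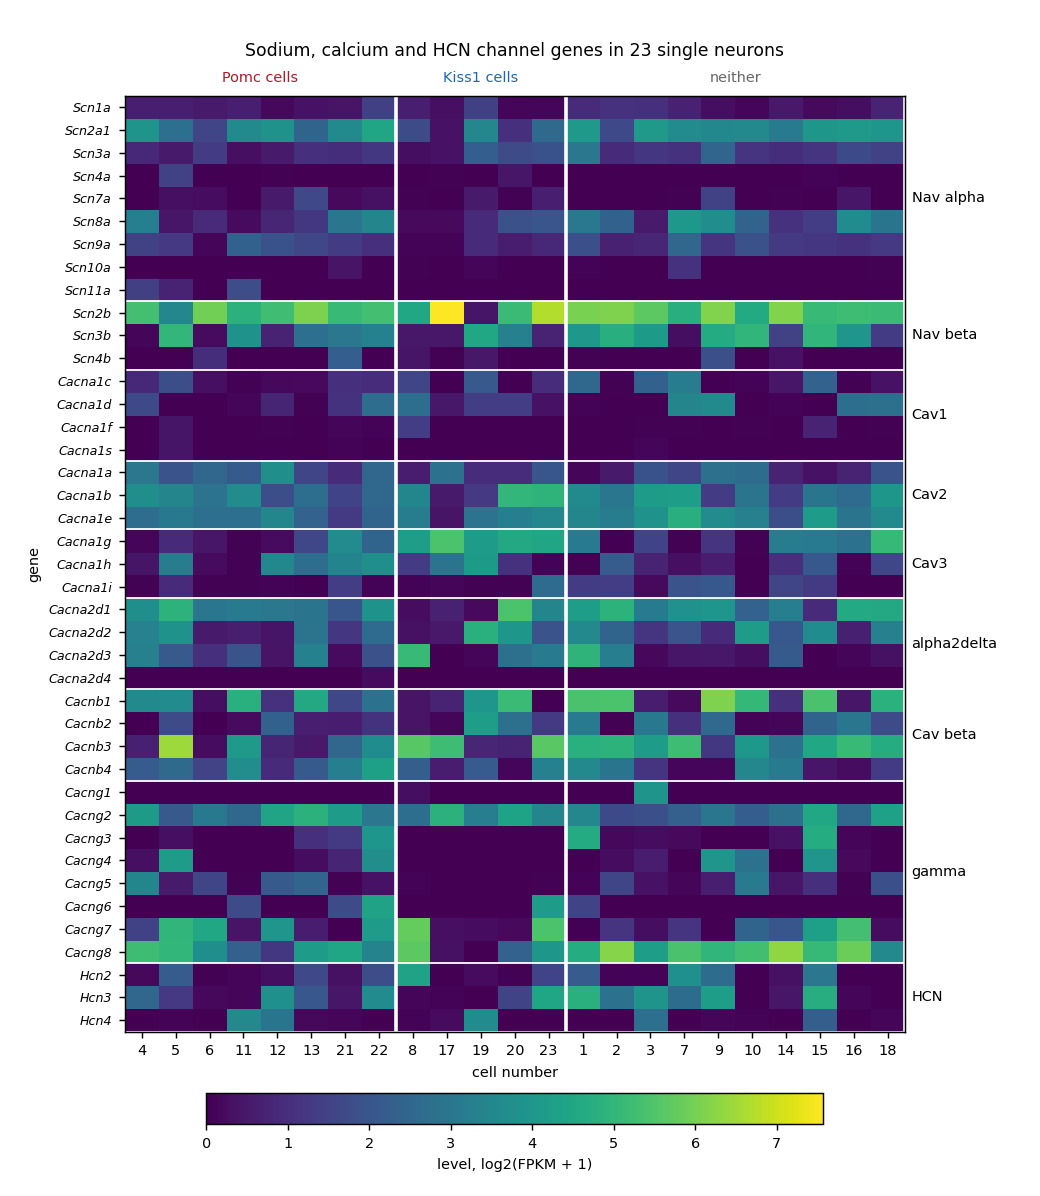
Levels of 41 of the genes (rows, by subfamily) in the 23 cells (columns, by peptide type), as log2(FPKM + 1). Scn2a1, Scn2b, Cacna1b, Cacna1e, Cacng2 and Cacng8 reach 1 FPKM in 21 to 23 cells, most other rows are broken from cell to cell, and cell 17 has few bright entries.

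Among the sodium channel pores, Scn2a1 (the gene of the pore Nav1.2, Scn2a in current references) was the most widespread. The gene reached 1 FPKM in 22 of the 23 neurons (95.7%; by the exact Clopper-Pearson method 78.1 to 99.9%, for counting error only), with a lowest level of 0.295 (cell 17), a median of 10.9 and a highest level of 21.5 FPKM (cell 22). It was the most abundant alpha subunit in 18 cells and made up 14.9 to 75.0% of the summed alpha subunit level of a cell, with a median of 50.2%. FPKM is per length of gene, so levels of different genes can be compared within a cell.

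Scn8a, which encodes Nav1.6, the main pore of mature nodes and axon initial segments, came next. It reached 1 FPKM in 15 cells, with levels from 0.142 to 15.5 and a median of 2.67 FPKM, and led the alpha subunits in 4 cells (2, 7, 9 and 20). Scn3a, the gene of a pore best known from the developing brain, was seen in 15 cells with levels from 0.215 to 7.03 and a median of 1.21 FPKM. Scn9a, the gene of Nav1.7, known for its role in pain-sensing neurons and also present in hypothalamus, was seen in 15 cells with levels from 0.0433 to 4.60 and a median of 1.29 FPKM. Each of these 3 genes was found only together with Scn2a1: 15 cells held both at 1 FPKM, 7 held Scn2a1 without it and 0 held it without Scn2a1. Scn2a1 missed 1 FPKM only in cell 17, which held no alpha gene at that level, so this overlap was bound to occur. Scn2a1 exceeded Scn9a in all 23 cells, Scn3a in 21 and Scn8a in 19.

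The remaining alpha genes described here were sparse. Scn1a, whose pore is prominent in fast-spiking interneurons, was seen in 4 cells and never exceeded 1.72 FPKM. Scn7a and Scn11a were seen in 2 cells each, with highest levels of 2.17 FPKM (cell 13) and 2.45 FPKM (cell 11). Scn4a, the skeletal muscle gene, and Scn10a, a gene of sensory neurons, were seen in 1 cell each, at 1.76 FPKM (cell 5) and 1.12 FPKM (cell 7). Of 4 skeletal muscle markers, Acta1 reached 1 FPKM in 22 cells and was highest in cell 5 (32.5 FPKM), Ckm did so in 1 cell (cell 7, 4.34 FPKM), and Myh4 and Tnnt3 in none. Their part in the Scn4a value was not tested. Cells held 3, 4 or 5 alpha genes at 1 FPKM in 6 cases each, with extremes of 0 (cell 17) and 6 (cell 7). Cell 17 had a summed alpha level of 1.41 FPKM, the lowest of the 23; the median was 18.6 and the highest 41.8 FPKM (cell 1).

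Neighbouring genes differed widely in how many cells held them. Scn1a, Scn2a1, Scn3a, Scn7a and Scn9a lie together on chromosome 2 from 65457118 to 66784910 (mm10) and were seen in 2 to 22 cells. Among the beta subunit genes, Scn2b and Scn4b share 36.2 kb of chromosome 9 (45117876 to 45154061), yet Scn2b was seen in 22 cells and Scn4b in 2 (9 and 21).

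The sodium channel beta genes had the highest summed level of the 9 subfamilies, with a median of 63.9 and a range of 23.0 to 190 FPKM. Scn2b, whose product is tied to the alpha subunit by a disulphide bond, had a lowest level of 0.346 (cell 19), a median of 37.0 and a highest level of 189 FPKM (cell 17), and was the leading beta gene in 16 cells. Scn3b, which encodes a noncovalently attached subunit, was seen in 16 cells (0.0831 to 31.3, median 8.98 FPKM). Cell 17 thus combined the highest Scn2b level of all cells with the lowest summed alpha level, and cell 19, with the lowest Scn2b level, had Scn3b at 22.2 FPKM.

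Of the calcium channel pores, the Cav2 genes that supply transmitter release were found in every cell. Cacna1b, the N-type pore gene, was seen in 22 cells (0.456 to 31.4, median 6.66 FPKM) and Cacna1e, the R-type gene, in the same number of cells (0.325 to 25.7, median 8.08 FPKM); both missed 1 FPKM in the same cell, 17, where Cacna1a was at 6.13 FPKM. Cacna1a, the P/Q-type gene, was seen in 14 cells (0.0647 to 12.5, median 2.74 FPKM). Cacna1b led in 13 cells, Cacna1e in 8 and Cacna1a in 2 (12 and 17). By type, Cacna1b led in 7 of 8 Pomc cells and Cacna1e in 7 of 10 cells of neither type and in 0 Pomc cells. Leads could be narrow (cell 22, Cacna1b 4.83 and Cacna1a 4.68 FPKM) or wide (cell 4, 12.5 and 6.95 FPKM). The levels overlapped between Pomc cells and cells of neither type. Cacna1b ran from 1.87 to 12.5 and 1.48 to 17.9 FPKM, and Cacna1e from 1.42 to 10.2 and 2.51 to 25.7 FPKM. The highest Cacna1b levels were in the Kiss1 cells 20 and 23, 31.4 and 29.4 FPKM, against at most 17.9 FPKM elsewhere; the Kiss1 cells 17 and 19 had 0.456 and 1.41 FPKM and were among the lowest.

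The L-type genes were less common. Cacna1d reached 1 FPKM in 10 cells, up to 11.0 FPKM (cell 9), and Cacna1c in 8, up to 8.25 FPKM (cell 7); both are widespread neuronal L-type pores. Only 4 cells held both, and 9 cells held neither of them. Cacna1f, the retinal gene, was seen in cell 8 alone (1.58 FPKM). Cacna1s, the skeletal muscle gene, was seen in 0 of 23 cells, which allows a share of up to 13.0% of such cells, counting 3 cells of 23 as the limit. The summed L-type level had a median of 2.95 FPKM, the lowest of the 9 subfamilies.

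The T-type genes were uneven across the peptide types, and Cacna1g was highest in Kiss1 cells. This gene (chromosome 11, 94408391 to 94474198, minus strand, mm10; no exon shared with another gene) was at or above 1 FPKM in 15 cells and led the T-type genes in all 5 Kiss1 cells. In Kiss1 cells 8, 17, 19, 20 and 23 it was at 17.9, 42.0, 17.2, 22.6 and 21.5 FPKM. In the 8 Pomc cells it ran from 0.0247 to 11.5 with a median of 0.620 FPKM, and in cells of neither type from 0.0190 to 32.4 with a median of 4.03 FPKM. Every Kiss1 cell was above every Pomc cell and above all cells of neither type except cell 18 (32.4 FPKM). The share of all genes that separate these cells in the same way is not given here. On the log2(FPKM + 1) scale the mean was 4.58 ± 0.50 (SD over 5 Kiss1 cells) against 2.01 ± 1.72 (10 cells of neither type), a difference of 2.56 that ranked 61 from the top among 11675 genes.

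Title set moved with Cacna1g as well. Set 2 had no cell under 4.47 FPKM (8 cells), while the 14 cells of set 1 that were not Kiss1 cells had at most 8.06 FPKM; the means were 1.32 in set 1 and 4.08 in set 2, and this difference of -2.76 was the largest between the sets among the 44 genes. Within set 2 the Kiss1 cells, 17.2 to 42.0 FPKM, overlapped the other 4 cells, 4.47 to 32.4 FPKM, and the difference of means was 1.16 (0.71 against the 2 cells of neither type). The single Kiss1 cell of set 1, cell 8, was the highest of its 15 cells, with 17.9 FPKM. Because 4 of 5 Kiss1 cells are in set 2, the share of the set in the overall difference cannot be told apart from that of the type beyond these within-set values. Without cells 17 and 19, the cells with the fewest genes, the difference was 2.41.

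Cacna1h, the gene of a T-type pore that is sensitive to zinc and nickel, reached 1 FPKM in 13 cells (0 to 16.5, median 1.18 FPKM). In the Pomc cells it was either high or near 0: cells 5, 12, 13, 21 and 22 had 8.17, 10.7, 5.61, 9.72 and 12.8 FPKM, and cells 4, 6 and 11 had 0.35, 0.17 and 0.02 FPKM. Over all 8 Pomc cells the levels, 0.02 to 12.8 FPKM, overlapped those of cells of neither type, 0 to 3.51 FPKM (highest in cell 2). The 5 high Pomc cells lay above that range, but they were grouped by this level. No share of all genes stands beside it. The mean was 2.17 ± 1.64 (SD over 8 Pomc cells) against 0.86 ± 0.83 (10 cells) on the log2 scale, a difference of 1.31, which was 0.83 within title set 1. In Kiss1 cells the difference of 1.05 rested on cells 17 and 19, at 6.49 and 16.5 FPKM, and was -0.02 without them.

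Cacna1i, the third T-type gene, was seen in 8 cells, 6 of them of neither type, with at most 5.29 FPKM (cell 23). The summed T-type level had medians of 26.8 FPKM in Kiss1 cells, 8.81 in Pomc cells and 5.69 in cells of neither type, with ranges of 19.4 to 48.6, 0.0771 to 22.8 and 0.0324 to 34.4 FPKM. Cells 21 and 18 were the ones outside the Kiss1 cells that reached into their range. Cells 4, 6, 10 and 11 had no T-type gene at 1 FPKM.

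**Figure D3:**
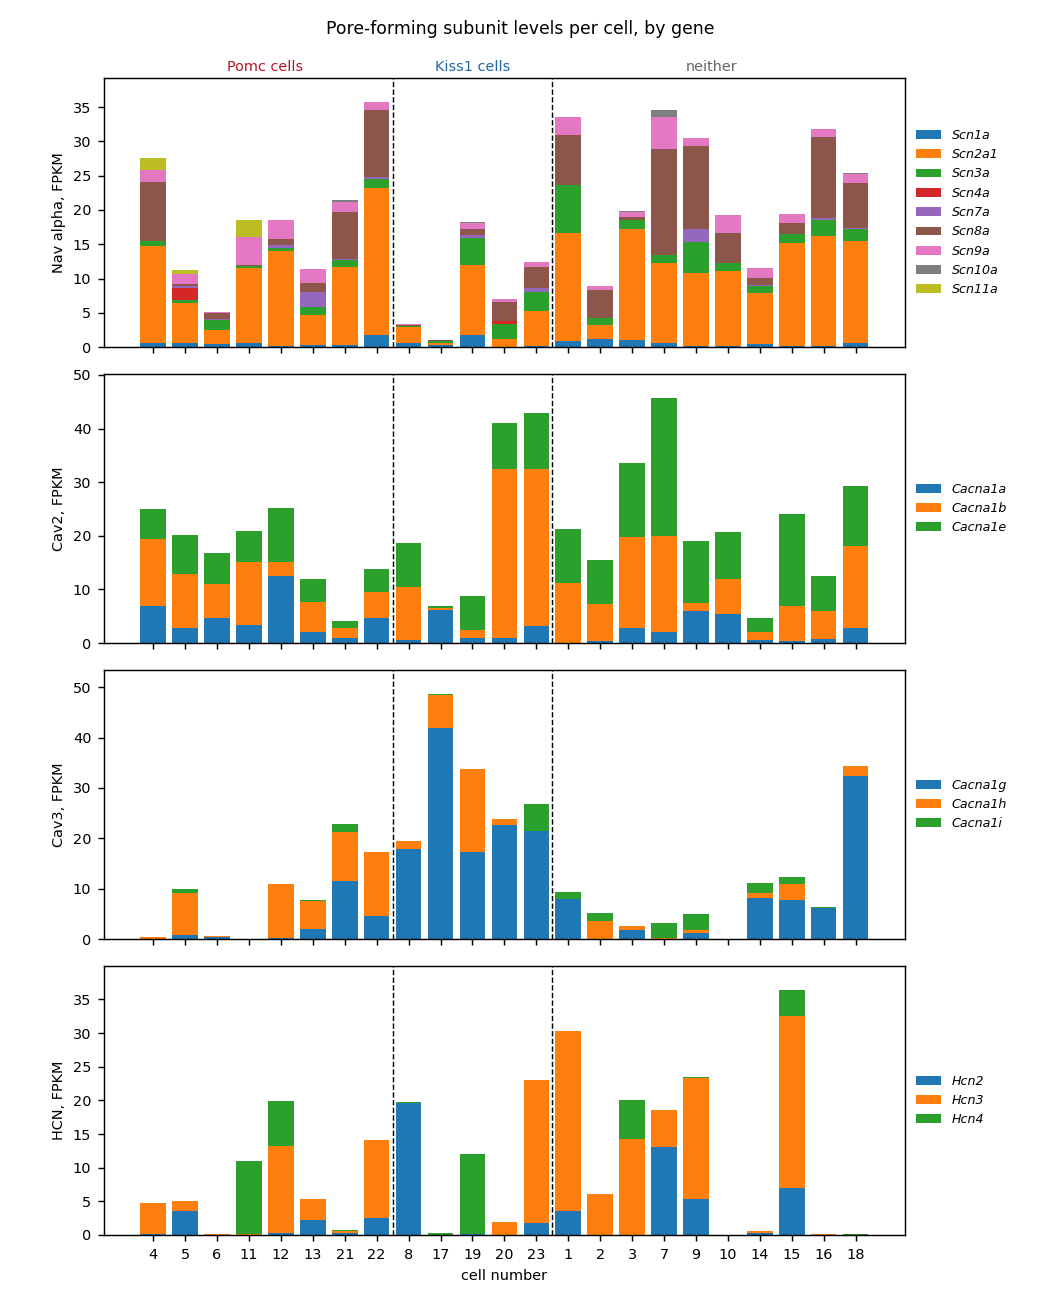
Levels in FPKM (vertical axes) of genes of the sodium channel alpha, Cav2, Cav3 and HCN subfamilies, those in the key, stacked per cell (horizontal axis, by peptide type). Scn2a1 fills most alpha bars, Cacna1g is the leading part of the Cav3 bars of the 5 Kiss1 cells, with 51.0% in cell 19 and 80.1 to 94.9% in the others, and the HCN bars change between Hcn2, Hcn3 and Hcn4 from cell to cell.

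The alpha2delta subunits lie outside the membrane and raise the number of calcium channels at the surface, and the products of Cacna2d1 and Cacna2d2 bind gabapentin. Cacna2d1 was seen in 19 cells (0.140 to 41.7, median 8.52 FPKM) and led in 17. Cacna2d2 was seen in 16 (0.255 to 27.2, median 3.24 FPKM) and Cacna2d3 in 12 (0 to 33.5, median 1.06 FPKM), and each of them led in 3 cells. Cacna2d4, known from retina, was seen in 0 of 23 cells, which allows up to 13.0% by the same limit of 3 cells, and its highest value was 0.158 FPKM. Cacna2d3 was uneven within types. In the Kiss1 cells 8, 17, 19, 20 and 23 it was at 33.5, 0.00, 0.07, 5.96 and 7.64 FPKM, and among cells of neither type cells 1, 2 and 14 had 29.6, 8.47 and 3.40 FPKM and the rest at most 0.39 FPKM. Of the Pomc cells, 6 of 8 reached 1 FPKM, the highest at 9.04 FPKM.

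The calcium channel beta genes varied widely between single cells. Cacnb3 was seen in 17 cells (0.188 to 86.6, median 16.2 FPKM), Cacnb1 in 16 (0 to 68.0, median 11.0 FPKM), Cacnb4 in 16 (0.0730 to 18.6, median 3.54 FPKM) and Cacnb2 in 13 (0 to 17.6, median 1.14 FPKM). These genes encode the cytoplasmic subunits that release the pore from retention inside the cell. Each was the leading beta gene of some cells, Cacnb1 in 10, Cacnb3 in 7, Cacnb4 in 4 and Cacnb2 in 2, and no cell was without a beta gene at 1 FPKM. Cacnb3 was at or above 1 FPKM in all 10 cells of neither type (1.36 to 36.2 FPKM) but in 4 of 8 Pomc cells, where cells 4, 6, 12 and 13 had 0.59, 0.19, 0.73 and 0.44 FPKM and cell 5 had the highest level of all cells, 86.6 FPKM. Exons of Cacnb4 share 16% of their bases with a transcript of the opposite strand (A430018G15Rik), and the strand used in counting is not given in the sources used here, so its values are uncertain by that part.

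The gamma genes hold both calcium channel subunits and the AMPA receptor auxiliary subunits called TARPs. The TARP genes Cacng2 and Cacng8 were the common ones. Cacng2, which encodes stargazin, was seen in all 23 cells (exact interval 85.2 to 100%) with levels from 2.23 to 28.3 and a median of 7.40 FPKM. Cacng8 was seen in 21 cells, with levels from 0 to 79.1 and a median of 21.4 FPKM, and led in 12 cells. The TARP gene Cacng7 was seen in 13 cells (0 to 53.6, median 1.2 FPKM), always with Cacng8. Because Cacng8 missed 1 FPKM only in cells 17 and 19, this overlap was nearly bound to occur. Cacng5 was seen in 8 cells, up to 10.2 FPKM (cell 4), Cacng3 in 5, up to 25.0 FPKM (cell 15), Cacng4 in 5, up to 17 FPKM (cell 5), and Cacng6 in 5, up to 19.4 FPKM (cell 22). Cacng1, the muscle calcium channel subunit gene, was seen in cell 3 alone, at 14.2 FPKM. Cacng3, Cacng4 and Cacng5 reached 1 FPKM in 0 of 5 Kiss1 cells, but they were sparse throughout, with 5, 5 and 8 of 23 cells. The share of all genes absent from those 5 Kiss1 cells is not given here.

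Cacng8 was lower in both peptide types than in the other cells. In Kiss1 cells 8, 17, 19, 20 and 23 it was at 50.0, 0.27, 0.00, 4.17 and 15.1 FPKM. In Pomc cells it ran from 1.34 to 35.9 with a median of 14.6 FPKM, and in cells of neither type from 10.7 to 79.1 with a median of 35.3 FPKM. The difference from cells of neither type was -1.46 for Pomc and -2.68 for Kiss1 cells, and the latter was -1.14 without cells 17 and 19. The Pomc difference was -0.88 with the Pomc limit doubled and -0.77 within title set 2, both under 1 in size. Cell 8, the Kiss1 cell of title set 1, was above the median of neither type, so the low values among the Kiss1 cells are those of set 2. Cacng6, Cacng7 and Cacng8 lie on chromosome 7 between 3336585 and 3434940 (mm10) and were seen in 5, 13 and 21 cells.

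The leading HCN gene differed from cell to cell, but many cells held several HCN genes together. At 1 FPKM, 8 cells held 3 of them, 5 held 2 and 7 held 1. Hcn3, whose product responds little to cyclic AMP, was seen in 13 cells (0 to 26.9, median 1.96 FPKM). Hcn2 was seen in 9 cells, up to 19.6 FPKM (cell 8), and Hcn4, the slow channel of the cardiac pacemaker, in 5, up to 11.9 FPKM (cell 19). Hcn3 was the most abundant HCN gene in 8 cells, Hcn2 in 3 and Hcn4 in 2. Hcn4 was the leading gene of cell 11, a Pomc cell (10.9 FPKM), and cell 19, a Kiss1 cell (11.9 FPKM), in which Hcn2 and Hcn3 were at most 0.17 FPKM. Cells 10, 14 and 17 held no HCN gene at 1 FPKM. Exons of Hcn3 share 17.1% of their bases with Pklr on the opposite strand, so part of its signal could belong to that gene.

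The summed HCN levels of the types overlapped. They had medians of 8.64, 14.1 and 18.2 FPKM in Pomc, Kiss1 and other cells, with ranges of 2.94 to 30.1, 0.266 to 27.2 and 0.0511 to 38.8 FPKM that overlapped almost fully. Among the 5 Kiss1 cells the leading gene was Hcn2 in cell 8, Hcn4 in cell 19 and Hcn3 in cell 23, and in cell 17 no HCN gene reached 1 FPKM. The Kiss1 cells therefore all held the T-type gene Cacna1g, while no HCN gene reached 1 FPKM in all of them. Cacna1g was not particular to the Kiss1 cells. All 8 cells of title set 2 had it at 4.47 FPKM or more, and it led the T-type genes in 6 cells of neither type and 1 Pomc cell.

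A gene was called higher or lower in a peptide type when its mean log2(FPKM + 1) differed by 1 or more from the cells of neither type, a rule of size and not a test. Of the 44 genes, 35 reached 1 FPKM in at least 3 cells and entered this comparison, with 11675 genes in all; 9 did not. In Pomc cells 1 gene was higher (Cacna1h, 1.31), where 8.43% of all genes were, and 4 were lower, among them Cacnb3 (-1.79), Cacng8 (-1.46) and Scn3b (-1.08), where 6.24% of all genes were. The shares among the 35 genes, 2.86% and 11.4%, rest on few genes, and leaving out 1 Pomc cell gave 1 to 3 higher (2 without cell 5, 6, 11 or 12, and 3 without cell 13 or 21) and 2 to 6 lower (2 without cell 6). With each cell rescaled to a sum of 1000000 the split was 4 higher and 8 lower. Cacna1h missed the rule with a pseudocount of 5 (0.69), with the Pomc limit doubled (0.81) or halved (0.84), and within title set 1 (0.83). Cacnb3 passed the rule under every setting tried, whereas Scn3b missed it without cell 4, 6 or 12 (-0.75 to -0.84), with the Pomc limit halved (-0.60) and with a pseudocount of 5 (-0.67), and was on the other side within title set 2 (0.52, 2 cells against 2). The median difference was -0.33 over the 35 genes and 0.02 over all genes.

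In Kiss1 cells 3 genes were higher (Cacna1g, 2.56; Cacna1h, 1.05; Cacna2d3, 1.01), 8.57% of the 35 against 7.07% of all genes. The lower ones were 10, or 28.6%, against 21.8% of all genes, among them Cacng8 (-2.68), Scn2a1 (-1.73), Cacna2d1 (-1.58), Scn3b (-1.54), Scn8a (-1.48), Cacnb1 (-1.39), Cacng4 (-1.18), Hcn3 (-1.13) and Cacng3 (-1.05). Both shares were near those of all genes, and the median difference, -0.21, was also near that of all genes, -0.29. Without cells 17 and 19, which had the fewest genes, 6 were higher, where 11.9% of all genes were (among them Cacna2d3, 2.46; Cacna1g, 2.41; Cacng7, 2.11; Cacna1b, 1.46; Cacng6, 1.24), and 7 lower, where 18.4% of all genes were. Cacna2d1 and Hcn3 then missed the rule, at -0.54 and -0.33, and Scn2a1 was at -1.78. Within title set 2, with 4 Kiss1 cells against 2 of neither type, Cacna1g (0.71), Scn3b (-0.38), Cacnb1 (-0.17), Cacng4 (-0.10) and Cacng3 (-0.06) missed it and Hcn3 was on the other side (1.47). Scn2a1 passed under every setting tried. Cacng8 was on the other side (0.40) in title set 1, where cell 8 was set against 8 cells of neither type, and passed under the other settings tried. The value of Cacna2d3 was 0.29 without cell 8.

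**Figure D4:**
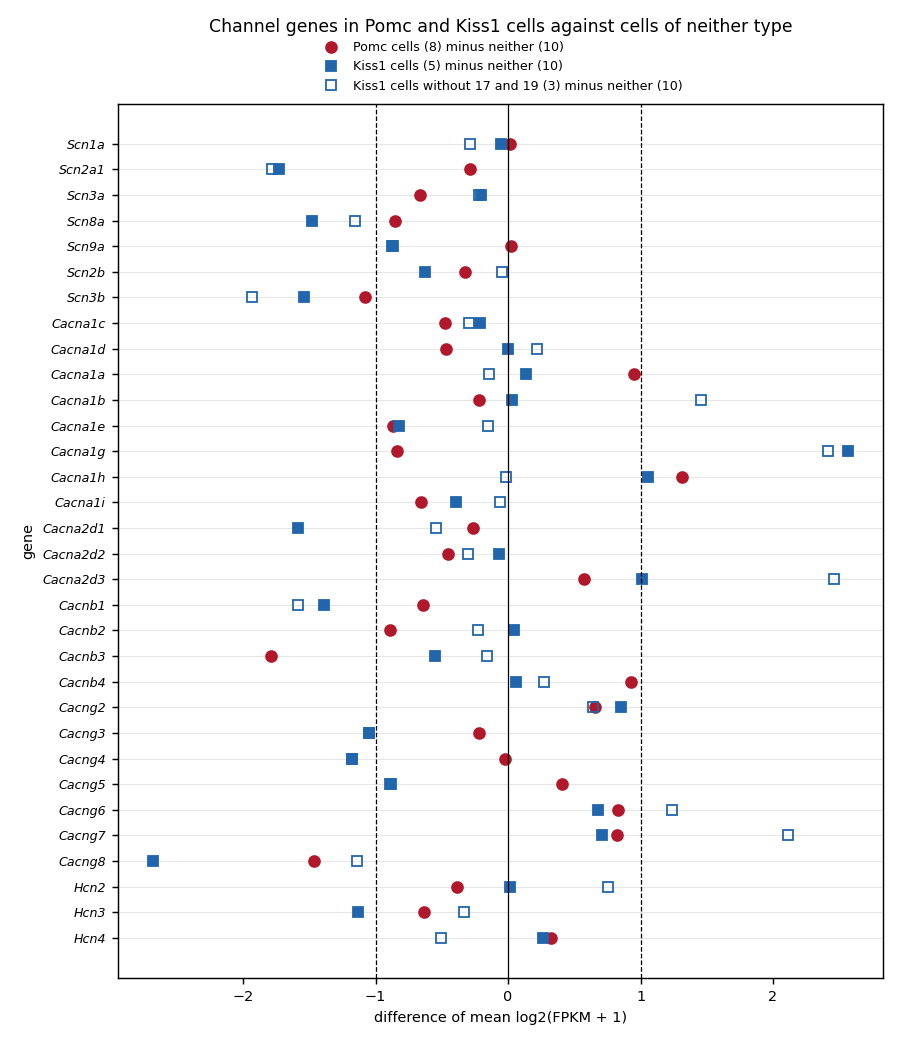
Difference of mean log2(FPKM + 1) from cells of neither type (horizontal axis) for 32 of the 35 genes that entered the comparison (vertical axis), for 8 Pomc cells (circles), 5 Kiss1 cells (filled squares) and 3 Kiss1 cells without cells 17 and 19 (open squares); dashed lines mark the size rule of 1. Cacna1g lies at 2.56 and 2.41 with and without those cells, whereas Cacng8, Cacna2d3, Cacna1b, Cacng7, Cacna1h and Cacna2d1 move by more than 1.

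The sodium channel pore genes Scn2a1 and Scn8a were among the lower genes in Kiss1 cells. Scn2a1 in Kiss1 cells 8, 17, 19, 20 and 23 was at 2.32, 0.29, 10.3, 1.06 and 5.15 FPKM, against 11.2 and 13.2 FPKM as the medians of Pomc and other cells. Cells 8, 19 and 23 lay within the range of those 18 cells, which was 1.97 to 21.5 FPKM, and cells 17 and 20 lay below it. Within title set 2 the 4 Kiss1 cells, at 0.29 to 10.3 FPKM, lay below the other 4 cells, at 11.4 to 21.5 FPKM, and in title set 1 cell 8 differed by -1.55 from the mean of the other 14 cells on the log2 scale. Scn8a was at 0.14, 0.14, 0.91, 2.67 and 3.05 FPKM in the same 5 cells, within the range of the other 18 cells except for cells 8 and 17, and the 4 of set 2 lay below the other 4 cells of that set, at 6.65 to 11.8 FPKM. By the size rule 21.8% of all genes were lower in Kiss1 cells. The share of all genes that separate fully within set 2 is not given here, and its Kiss1 cells include cells 17 and 19, with the fewest genes.

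Scn9a reached 1 FPKM in 7 of 8 Pomc cells and 8 of 10 cells of neither type, and in 0 of 5 Kiss1 cells, where cells 8, 17, 19, 20 and 23 had 0.06, 0.04, 0.90, 0.48 and 0.80 FPKM. Within set 2 those Kiss1 cells lay below the other 4 cells, at 1.08 to 1.56 FPKM, and no share of all genes stands beside this separation or the count of 0. Across both sets they overlapped with cells 2, 3 and 6, at 0.62, 0.77 and 0.10 FPKM, and all these levels are near the limit of 1 FPKM. The difference of means, -0.87, missed the size rule. The summed alpha level was 1.41 to 18.5 in Kiss1 cells, 5.16 to 35.8 in Pomc cells and 8.97 to 41.8 FPKM in cells of neither type. Beside it, the number of all genes at 1 FPKM was 4049 to 6698 in Kiss1, 6425 to 8025 in Pomc and 6393 to 7619 in other cells, and the part of gene number in the alpha levels was not tested.

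**Figure D5:**
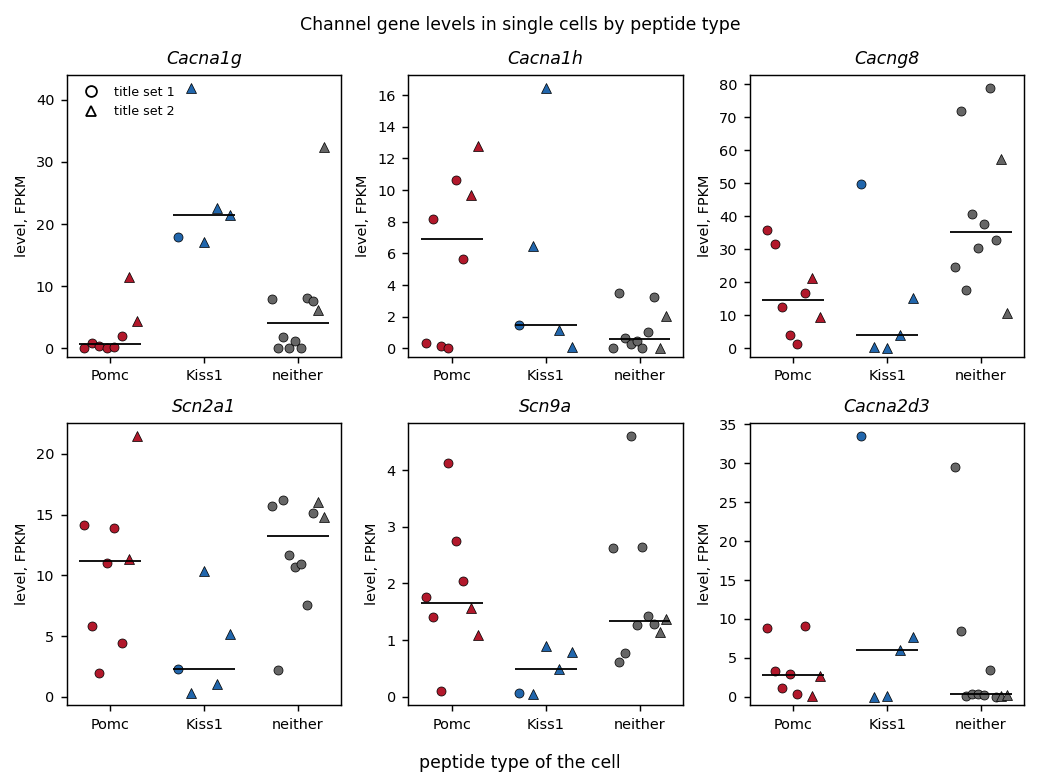
Levels in FPKM (vertical axes) of 6 genes in single cells by peptide type (horizontal axis); circles are title set 1, triangles title set 2 and bars medians. Cacna1g has all 5 Kiss1 cells between 17.2 and 42.0 FPKM, Cacna1h splits the Pomc cells at 5.61 FPKM and above against 0.35 and below, and Scn9a has every Kiss1 cell under 1 FPKM.

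Proteins that attach to these channels were read from a separate list of 34 genes, of which 32 were measured. Of these, 27 reached 1 FPKM in some cell, 19 did so in 12 cells or more and 7 in all 23, where 63.6%, 27.7% and 7.2% of all genes did. Among those 7 were the ankyrin genes Ank2 and Ank3, which anchor sodium channels, the calmodulin genes Calm2 and Calm3, and Rrad and Gem, small GTPases that hold back calcium channels. Calm2 had a median of 2781 FPKM, and Rrad had 220 FPKM with a range of 10.4 to 2044. Fgf12, an intracellular factor bound to the sodium channel tail, was seen in 22 cells with a median of 22.3 FPKM, and the sodium leak channel genes Nalcn and Unc80 in 21 and 22 cells with medians of 2.67 and 11.3 FPKM. Fam155a, a further subunit gene of the leak channel, was seen in 20 cells with a median of 18.8 FPKM.

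By the same size rule, 23 of the partner genes could be compared. In Kiss1 cells 6 were higher, where 7.07% of all genes were, and 1 was lower (Rims2, -1.14), where 21.8% were. The higher ones, named after their values were seen, were Fgf13 (3.51), Unc79 (2.14), Sptbn4 (1.33), Nedd4l (1.23), Fgf14 (1.07) and Ank3 (1.05). The levels of Sptbn4, Ank3, Fgf14 and Unc79 were highest of all cells in cell 17, at 55.4, 89.1, 90.1 and 54.5 FPKM. Without cells 17 and 19, 4 were higher (Fgf13, 4.35; Rims1, 1.8; Unc79, 1.61; Nedd4l, 1.24), where 11.9% of all genes were, and Fgf14, Sptbn4 and Ank3 were at 0.66, 0.75 and 0.44. Fgf13 had a median of 129 FPKM in Kiss1 cells, 8.19 in Pomc cells and 5.47 in other cells, with ranges of 5.05 to 135, 0.254 to 38.4 and 0 to 60.1 FPKM, and within title set 2 its difference from the other cells was 1.44. In Pomc cells Rims1 (1.52), Gem (1.41) and Rims2 (1.06) were higher, where 8.43% of all genes were, and Rem2 (-1.26), Fgf14 (-1.13) and Nedd4l (-1.07) were lower, where 6.24% were; Rims1 and Rims2 encode scaffolds that place calcium channels at release sites, and Gem and Rem2 belong to the GTPases that inhibit them.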

How the data were processed

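Each GFP-positive neuron was amplified on its own by SmartSeq2, and a NuGen kit served for the libraries, per the labels' protocols. The submitters' processing notes name CASAVA 1.8, TopHat, Cufflinks and the build mm10; which TopHat and Cufflinks versions, annotation and strand setting were used is not given in the sources. The authors deposited FPKM values per gene and cell, in 1 table of 23896 rows that also holds other rows: 12 leftover summary rows without a gene, some below 0, were left out, 27 rows whose names had become dates were left out, 286 identical copies were dropped, and rows of 124 symbols were summed, which left 23373 genes. SmartSeq2 carries no molecular identifiers, so amplified copies count as fragments, and a few abundant peptide transcripts lower all other FPKM values of a cell.

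FPKM sums per cell were 379230 to 687163. No absolute depth was derived; relative depth is the commonest ratio to cell 12 among values under 0.5 FPKM (log2 bins of 0.02) for loci no shorter than 500 bp. A gene was counted in a cell at 1 FPKM or more. Means used log2(FPKM + 1), with differences understated for low genes, and the size rule of 1 took genes at 1 FPKM in at least 3 cells. Both steps were run on simulated data, and the settings and outcome of that run are not given here. How the steps perform on values with the spread and the zeros of these cells was not tested. Cells are not replicates, so no p-value was computed, and SDs are over cells.

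Genes at 1 FPKM in 12 or more cells are given in full and the others by count and highest cell, and some genes that the rules select count in totals but are not reported here; of the partner list, the genes seen in the most cells, up to 12, are named. The members, lists and rules were chosen with earlier results of these data known. The setting without cells 17 and 19, the 5% setting and, for the size rule, title set 2 alone for Pomc and title set 1 alone for Kiss1 were chosen after seeing the data. Positions are the file's loci, with starts taken to count from 0 because 16 of 44 lay 1 below RefSeq, and exon overlaps come from GENCODE M21. Alternatives were other thresholds, pseudocounts, no filter, medians, rescaling, doubled or halved peptide limits, each title set and leaving out each cell of a type. Tools were pandas 2.3.3 and numpy 2.4.6 under Python 3.11.15, with scipy 1.17.1 for intervals and matplotlib 3.10.9 for plots.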

Additional observations from a re-analysis of the deposited data

How the results depend on the processing

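The number of channel genes in at least 1 cell stayed between 34 and 42 under every threshold, scaling and title set tried. At 5 FPKM the genes in 12 or more cells were 11 in place of 24, those in every cell 0 in place of 1, and the median per cell 13 in place of 22. The genes in every cell were 6 in title set 1 alone, 2 in title set 2 alone and 6 without cells 17 and 19. Of 485 values at 1 FPKM or more, 472 were also at least 5% of the gene's highest value in the title set. Rescaling each cell to 1000000 moved the median sums to 36.4 FPKM for sodium channel alpha, 128 for beta, 40.8 for Cav2, 40.6 for alpha2delta, 75.9 for calcium channel beta, 112 for gamma and 25.4 for HCN genes, with moves within 1 SD over cells to 5.42 for Cav1 and 18.8 for Cav3, and title set 2 alone gave 25.3 for Cav3. In Pomc cells the higher genes were 6 with a pseudocount of 0.1, 0 with 5, 5 with medians, 4 with rescaling, 4 with the doubled Pomc limit 2 in title set 1 alone and 8 in title set 2 alone, and 1 to 3 when a cell was left out. The lower genes were 9, 2, 10 and 8 with those first 4 settings, 8 in title set 1 alone, and 2 to 6 when a cell was left out. In Kiss1 cells the higher genes were 1 with a pseudocount of 5 and 6 without cells 17 and 19 and 8 in title set 1 alone (1 Kiss1 cell), and 2 to 3 when a cell was left out; the lower genes were 2 with a pseudocount of 5, and 8 to 12 when a cell was left out. Single differences in Kiss1 cells that changed sign were Cacna1h (-0.016) without cells 17 and 19, Hcn3 (1.47) in title set 2 alone and Cacng8 (0.40) in title set 1 alone, and in Pomc cells Scn3b (0.52) in title set 2 alone. Over the other settings and the genes named for a difference, 211 values kept their side of the size rule, 44 no longer passed it and 6 newly passed it. Some of the 211 could not change. Dropping the filter leaves each difference as it was, and the halved Kiss1 limit selected the same 5 and 10 cells. Cacng3 and Cacng4 were at 0 in all 5 Kiss1 cells, so leaving out a cell could not move their values. The causes were not tested. Depth limits levels near 1 FPKM, which may rest on few fragments. No paired analysis was possible because the cells form a single group.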
